A study of Drosophila melanogaster with 6 samples.

Results

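Among the 6881 genes of the count table that carry a CG number as their symbol, 62 had lower levels in poxn > pros RNAi, Syp RNAi tumors than in poxn > pros RNAi tumors by a rule that used the measured values of the tumor libraries themselves. A CG number is the serial name that the fly genome annotation gives to a gene model before it has a name of its own. Levels were taken as CPM (the count of a gene divided by the total count of its library and multiplied by 1000000), averaged over the 2 libraries of a condition. A member had a mean of at least 1 CPM in pros knockdown tumors, a ratio of at least 2.5 between that mean and the pros and Syp knockdown mean plus 0.1 CPM, and both pros knockdown libraries above both pros and Syp knockdown libraries. Members were chosen by this contrast, so the values between the tumors are given below as a description, without a test. Of the 3868 CG genes with at least 1 CPM in pros knockdown tumors, 1.6% met the rule, against 1.48% of the 6541 genes with other names. With the tumors exchanged in the rule, 3.06% of CG genes and 3.17% of genes with other names were members, so a CG number set neither direction apart.

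The study grew neural stem cell (neuroblast, NB) tumors in the fly ventral nerve cord (VNC) and measured their RNA together with the VNC on which they grow. In the double knockdown (pros and Syp knockdown, poxn > pros RNAi, Syp RNAi), poxn-Gal4, UAS-mCherry.NLS and UAS-dicer2 drove RNAi against both prospero (pros) and Syncrip (Syp). In the pros knockdown (poxn > pros RNAi), the same transgenes drove RNAi against pros alone. Wild-type VNCs had no tumor, and adult VNCs of that kind hold no NBs. The flies were 6 days old by the labels, and the study's methods give an older age and pools of VNCs from females and males. The driver is active in a few NBs of the VNC, and every library also holds the RNA of the surrounding nerve cord, so fewer cells of a type and less RNA per cell cannot be told apart in any value below. The methods call the 2 libraries of a condition technical replicates, and the p-values measure only the spread between them.

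Prospero is the homeodomain factor that makes the daughter cells of NBs stop dividing and differentiate, and NBs amplify when it is missing. Syp is an RNA-binding protein that marks late NBs, where it opposes the early RNA-binding protein Imp and helps NBs to end their divisions on schedule. For most of the 62 genes no function is given by the annotation used here. Exceptions with a known role are spread over cilium assembly, secreted proteases and their inactive relatives, immune peptides and scavenger receptors.

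The targeted genes followed the labels. Syp had 430 and 448 CPM in pros and Syp knockdown tumors, 1895 and 1587 CPM in pros knockdown tumors, and 741 and 790 CPM in wild-type VNCs. The pros gene had 1066 and 1224 CPM in pros and Syp knockdown tumors, 675 and 728 CPM in pros knockdown tumors, and 2655 and 2677 CPM in wild-type VNCs. Library totals ranged from 86098417 to 128107088 counts, of which 15.6% to 23.8% came from ribosomal RNA genes. The 6 NB markers summed to 1959 and 1718 CPM in pros and Syp knockdown tumors, 2223 and 2041 CPM in pros knockdown tumors, and 13.4 CPM in each wild-type library. Between the tumors the list was split, with 2 of 6 markers higher in both pros knockdown libraries and 2 lower.

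The 62 genes together held 614 and 373 CPM in the pros and Syp knockdown libraries, 2253 and 1895 CPM in the pros knockdown libraries, and 2934 and 1630 CPM in the wild-type libraries. Most were weakly expressed. In pros knockdown tumors 36 members had a mean under 5 CPM and 4 reached 100 CPM, with a median over members of 3.92 CPM. In pros and Syp knockdown tumors 35 members had a mean under 1 CPM, and the median was 0.836 CPM. The ratio between the tumors had a median of 3.73, was under 3 for 20 members, 5 to 10 for 15 and over 10 for 8. Lower, rather than absent, is thus the description that holds for most of them. No member was at or under 3 counts in both pros and Syp knockdown libraries.

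**Figure D1:**
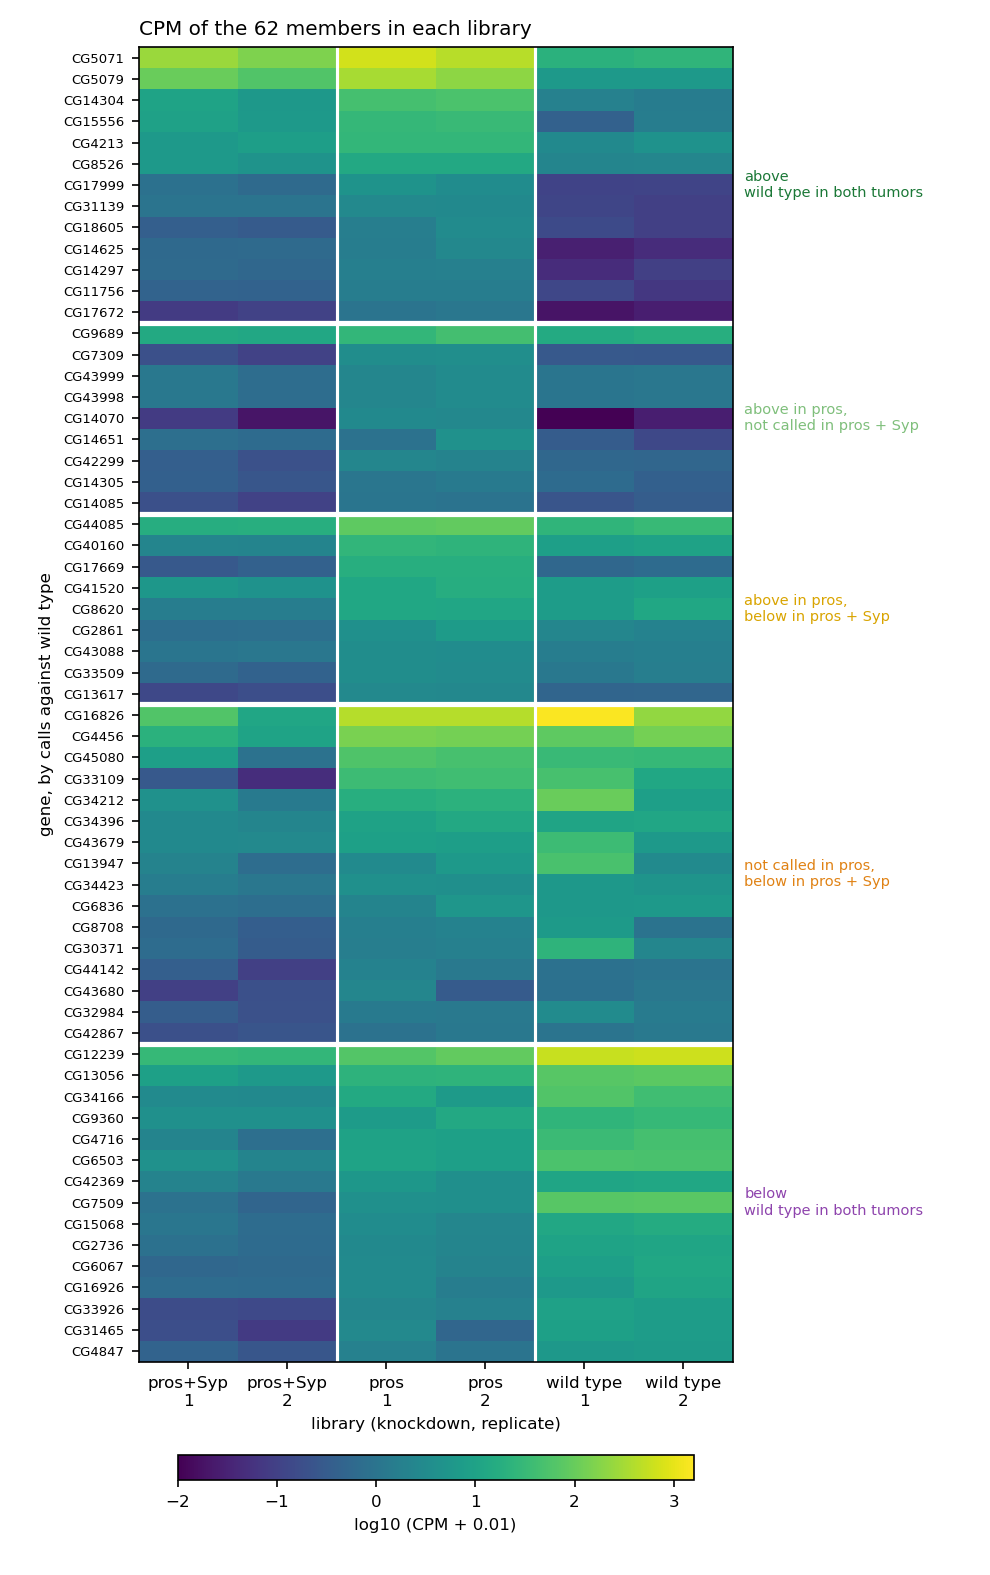
Level of each of the 62 genes (rows) in the 6 libraries (columns), as the log10 of CPM plus 0.01. Rows are grouped by whether the tumor mean was called above or below wild type, and the brightest rows are CG5071, CG16826 and CG12239, in different groups.

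The name unnamed holds in part. All 62 matched a single RefSeq entry, each protein coding, and 8 now have a symbol. These are Dnaaf3 (CG17669, a factor for the assembly of the dynein arms of motile cilia), DZIP1 (CG13617, a protein of the cilium base), Ktch (CG15556, an adhesion receptor of the G protein-coupled family), CtsK2 (CG4847, a cathepsin-like cysteine protease), Tssk (CG14305, a kinase of the testis-specific family), BomS6 (CG15068, a short immune-induced Bomanin peptide), Srg3 (CG33926) and sac (CG14651). Synonyms in the same table place CG40160 and CG6067 among the inactive homologs of serine proteases (cSPH242 and SPH254), CG30371 among the serine proteases (SP80) and CG8708 among the core 1 galactosyltransferases (dC1GalT2).

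Members with the largest ratio between the tumors were low in the double knockdown at very different starting levels. CG33109 (chromosome 3R, 14220560 to 14221584 in the dmel6 assembly of the deposited counts, minus strand) led with a ratio of 149. It had 0.273 and 0.0377 CPM in pros and Syp knockdown tumors, 36.6 and 39.4 CPM in pros knockdown tumors, and 48.9 and 12.4 CPM in wild-type VNCs. In counts, the pros and Syp knockdown libraries held 35 and 4 reads, so their difference rests on few reads, and both lie far below the other 4 libraries. Dnaaf3 (2R, 18452737 to 18454462) followed with a ratio of 41.1. Its levels were 0.273 and 0.405 CPM in pros and Syp knockdown tumors, 18.2 and 17.8 CPM in pros knockdown tumors, and 0.533 and 0.651 CPM in wild-type VNCs. Here the pros knockdown libraries stood alone, and the double knockdown lay under wild type. DZIP1, the other gene of cilia in the list, had the same order, with 0.125 and 0.17 CPM in pros and Syp knockdown tumors, 2.79 and 2.66 CPM in pros knockdown tumors, and 0.496 and 0.503 CPM in wild-type VNCs.

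CG14070 (ratio 19.9) had 0.0703 and 0.00942 CPM in pros and Syp knockdown tumors, 2.90 and 2.67 CPM in pros knockdown tumors, and 0 and 0.0173 CPM in wild-type VNCs. CG7309 (ratio 15.3) had 0.18 and 0.0942 CPM, 3.61 and 3.62 CPM, and 0.276 and 0.26 CPM in the same order of conditions. Both are near background outside the pros knockdown libraries. CG16826 (2L, 13347773 to 13349020, ratio 11.5) was of another kind, with 60.3 and 11.9 CPM in pros and Syp knockdown tumors, 421 and 413 CPM in pros knockdown tumors, and 1453 and 231 CPM in wild-type VNCs. Its wild-type libraries lay on either side of the pros knockdown libraries, and its pros and Syp knockdown libraries were over 2-fold apart. CG45080 (ratio 11.3) was likewise uneven in the double knockdown, with 8.47 and 0.895 CPM there, 58.3 and 49.5 CPM in pros knockdown tumors, and 33.3 and 30.8 CPM in wild-type VNCs.

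CG40160, the protease homolog (ratio 10.8), had 2.29 and 2.21 CPM in pros and Syp knockdown tumors, 26.6 and 24.1 CPM in pros knockdown tumors, and 8.77 and 9.83 CPM in wild-type VNCs. No condition overlapped another. Srg3 (ratio 9.21) had 0.148 and 0.132 CPM in pros and Syp knockdown tumors, 2.46 and 1.96 CPM in pros knockdown tumors, and 9.29 and 7.70 CPM in wild-type VNCs, so that wild type was highest.

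**Figure D2:**
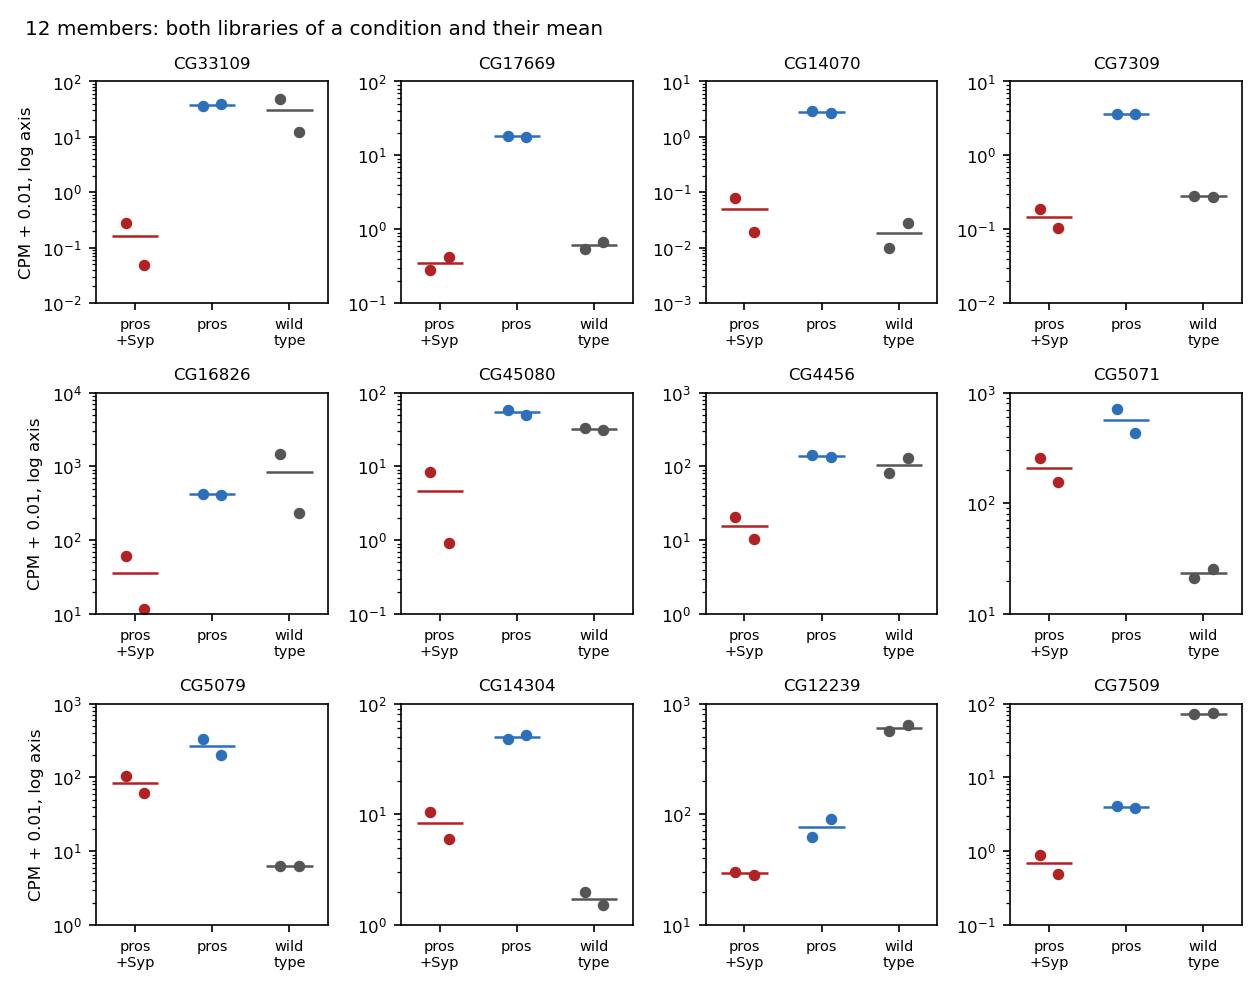
CPM plus 0.01 (log axes, a separate range for each gene) of 12 members in pros + Syp knockdown, pros knockdown and wild-type libraries. Points are the 2 libraries of a condition and lines their mean. Wild type sits near the double knockdown for CG17669 (Dnaaf3), far below both tumors for CG5071 and CG5079, and above both for CG12239 and CG7509.

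At the edge of the rule, CG9689 (ratio 2.53), CG8526 (2.54) and CG9360 (2.54) were just inside. CG9360, listed under the synonym FOHSDR, had 3.99 and 4.02 CPM in pros and Syp knockdown tumors, 7.06 and 13.8 CPM in pros knockdown tumors, and 25.4 and 29.85 CPM in wild-type VNCs. Just outside were CG9993, with a ratio of 2.48, and CG11889 and CG11891, with 2.46 and identical counts. CG9993 had 3.90 and 4.43 CPM in pros and Syp knockdown tumors, 12.9 and 8.22 CPM in pros knockdown tumors, and 0.147 and 0.13 CPM in wild-type VNCs. CG11889 and CG11891 each had 6.86 and 5.50 CPM in pros and Syp knockdown tumors, 14.2 and 16.7 CPM in pros knockdown tumors, and 100.2 and 106 CPM in wild-type VNCs. The ranges of genes inside and outside thus met at the limit, without a gap.

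The rule did not use the wild-type libraries, and the members were set against them in 2 comparisons. Each tumor condition was compared with wild type in a single edgeR fit over all 6 libraries and 14451 genes, and a gene was called at an adjusted p under 0.05. Both comparisons share the wild-type libraries, and each contains tumor libraries that the rule had selected for low or high values, so the counts describe where the members lie and are no independent support for the rule. In pros and Syp knockdown tumors 13 members were called higher than wild type and 40 lower, where 40.5% of all genes tested were called higher and 36.4% lower. In pros knockdown tumors 31 members were higher and 15 lower, where 40.7% of all genes tested were called higher and 38.7% lower. The median log2 fold change over wild type was -1.85 for the members and 0.06 for all genes tested in pros and Syp knockdown tumors. In pros knockdown tumors it was 1.04 for the members and 0.004 for all genes tested. All 62 members passed the filter on low counts. Without the filter and under DESeq2 the counts stayed within 1 of these.

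**Figure D3:**
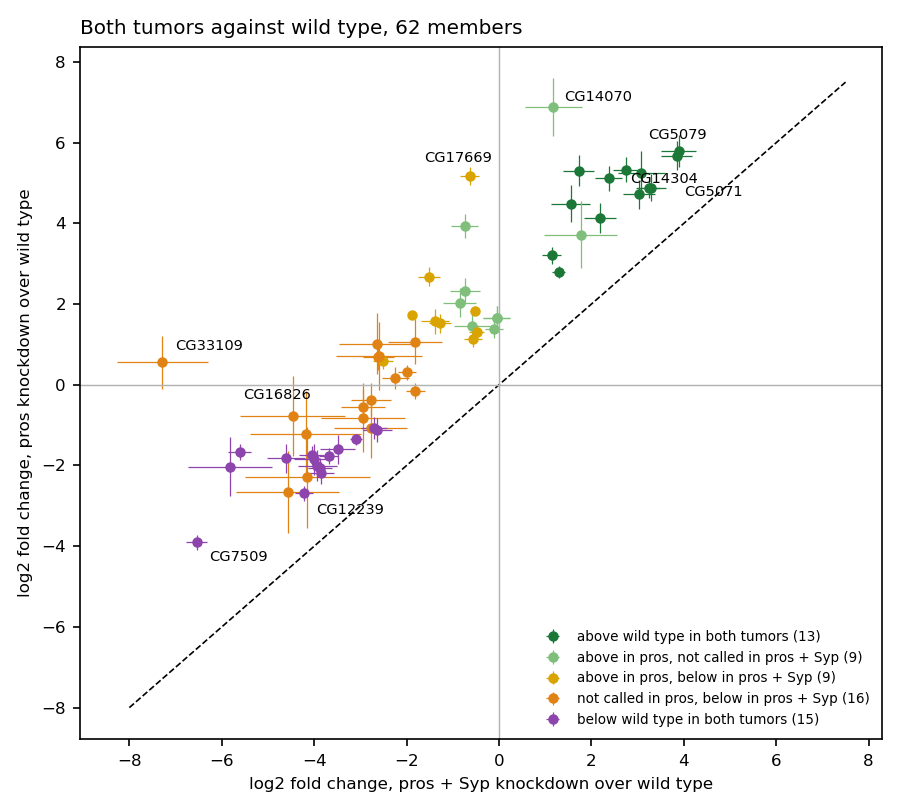
Log2 fold change over wild type of the 62 members in pros + Syp knockdown tumors (horizontal) and pros knockdown tumors (vertical). Bars are standard errors of the edgeR fit, colors give the calls, and the dashed line marks equal fold changes. The members lie above that line by construction of the rule, in 5 groups of 13, 9, 9, 16 and 15 genes.

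The calls divided the members into 5 groups. The share of all genes tested that falls in each group was not computed, so the group sizes only describe the members. In the first, 13 members were called higher than wild type in both tumors, with medians over genes of 0.999 CPM in pros and Syp knockdown tumors, 4.04 CPM in pros knockdown tumors and 0.112 CPM in wild-type VNCs. Their log2 fold changes over wild type ran from 1.14 to 3.89 in pros and Syp knockdown tumors and from 2.80 to 5.79 in pros knockdown tumors. CG5071 (3R, 25618414 to 25621838) and CG5079 (3R, 25613666 to 25614451), neighbors on the plus strand, took the most counts of the group. CG5071 had 258 and 155 CPM in pros and Syp knockdown tumors, 704 and 431 CPM in pros knockdown tumors, and 21.2 and 25.4 CPM in wild-type VNCs. Its log2 fold change over wild type was 3.29 ± 0.32 (SE) in the double knockdown (edgeR adjusted p = 0.000162) and 4.89 ± 0.34 in the pros knockdown (edgeR adjusted p = 3.58e-05). CG5079 had 105 and 60.5 CPM in pros and Syp knockdown tumors, 331 and 203 CPM in pros knockdown tumors, and 6.21 and 6.36 CPM in wild-type VNCs. In both genes replicate 1 was higher than replicate 2 in each tumor condition, and the conditions did not overlap.

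Ktch and CG14304 belonged to the same group. Ktch had 9.31 and 6.21 CPM in pros and Syp knockdown tumors, 29.6 and 34.0 CPM in pros knockdown tumors, and 0.404 and 1.6 CPM in wild-type VNCs. Its log2 fold change in the double knockdown was 3.08, or 2.45 without wild-type replicate 1 and 4.28 without wild-type replicate 2. In the pros knockdown it was 5.25, or 4.64 and 6.45 without the same libraries. CG14304 (3R, 18592801 to 18621327) had 10.6 and 5.93 CPM in pros and Syp knockdown tumors, 47.5 and 52.2 CPM in pros knockdown tumors, and 1.96 and 1.49 CPM in wild-type VNCs.

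CG4213 and CG8526 had the smallest folds of the group in the double knockdown beside CG18605. CG4213 had 6.41 and 8.16 CPM in pros and Syp knockdown tumors, 28.1 and 27.9 CPM in pros knockdown tumors, and 2.90 and 4.44 CPM in wild-type VNCs. CG8526 had 6.06 and 4.59 CPM in pros and Syp knockdown tumors, 13.6 and 14.0 CPM in pros knockdown tumors, and 2.31 and 2.46 CPM in wild-type VNCs. Each of these kept its order of conditions in every library. CG18605 had 0.367 and 0.302 CPM in pros and Syp knockdown tumors, 1.66 and 3.19 CPM in pros knockdown tumors, and 0.138 and 0.0867 CPM in wild-type VNCs. Its call in the double knockdown was lost without wild-type replicate 2 (log2 fold change 1.24, edgeR adjusted p = 0.0879) and without pros and Syp knockdown replicate 1 (1.45, edgeR adjusted p = 0.0511).

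The remaining members of this group had under 5 CPM in every library. CG14625 (X) had 0.601 and 0.622 CPM in pros and Syp knockdown tumors, 1.62 and 2.62 CPM in pros knockdown tumors, and 0.0184 and 0.0347 CPM in wild-type VNCs, with the largest log2 fold change in the double knockdown (3.89 ± 0.38, edgeR adjusted p = 0.000168). CG17672 had 1 and 2 counts in the wild-type libraries. Its level was 6.06 times that of wild type in the double knockdown (95% exact binomial interval of the counts 1.78 to 32.0) and 80.2 times in the pros knockdown (27.0 to 392), intervals that cover counting error only. CG17999, CG31139, CG14297 (synonym LMW-PTP) and CG11756 had the same order of conditions.

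In 9 further members the pros knockdown was called higher than wild type while the double knockdown was not called. Their medians were 0.313 CPM in pros and Syp knockdown tumors, 2.79 CPM in pros knockdown tumors and 0.522 CPM in wild-type VNCs. A missing call does not show that the double knockdown equals wild type, and the log2 fold changes of these 9 in the double knockdown ran from -0.85 to 1.77. CG9689 was the strongest of them by counts, with 14.6 and 13.4 CPM in pros and Syp knockdown tumors, 28.0 and 43.3 CPM in pros knockdown tumors, and 15.2 and 18.2 CPM in wild-type VNCs. CG14070, with 0 and 2 counts in the wild-type libraries, was 4.79 times wild type in the double knockdown (interval 1.02 to 44.9) and 313 times in the pros knockdown (86.4 to 2595). For CG7309 the log2 fold change was -0.74 ± 0.29 in the double knockdown (edgeR adjusted p = 0.0582) and 3.93 ± 0.30 in the pros knockdown (edgeR adjusted p = 5.49e-05). The gene sac was uneven in the pros knockdown, where its libraries had 0.919 and 4.22 CPM, and its log2 fold change there moved between 2.23 and 4.53 as single libraries were left out. Tssk had 0.39 and 0.236 CPM in pros and Syp knockdown tumors, 1.10 and 1.35 CPM in pros knockdown tumors, and 0.661 and 0.382 CPM in wild-type VNCs, and its call was lost without wild-type replicate 2 or pros knockdown replicate 2 (edgeR adjusted p = 0.0749 and 0.0745). CG42299, CG14085, CG43998 and CG43999 were the others of this group.

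Another 9 members were called higher than wild type in the pros knockdown and lower than wild type in the double knockdown, with medians of 1.08 CPM in pros and Syp knockdown tumors, 12.4 CPM in pros knockdown tumors and 2.25 CPM in wild-type VNCs. CG40160 had the smallest standard errors of the group, with a log2 fold change of -1.89 ± 0.08 in the double knockdown (edgeR adjusted p = 7.82e-06) and 1.73 ± 0.08 in the pros knockdown (edgeR adjusted p = 7.88e-06). DZIP1 changed by -1.51 ± 0.24 in the double knockdown (edgeR adjusted p = 0.00163) and 2.68 ± 0.24 in the pros knockdown (edgeR adjusted p = 0.000103). Dnaaf3 changed by 5.16 ± 0.22 in the pros knockdown (edgeR adjusted p = 6.41e-06). Its small difference in the double knockdown, -0.64 ± 0.21 (edgeR adjusted p = 0.0336), lost its call without wild-type replicate 1 (0.0739), without wild-type replicate 2 (0.133), without either pros knockdown library (0.0769 and 0.0768) and without pros and Syp knockdown replicate 1 (0.171).

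CG44085 (2L, 13261008 to 13284043), with the longest exons of the list, had 17.6 and 18.5 CPM in pros and Syp knockdown tumors, 81.4 and 88.6 CPM in pros knockdown tumors, and 25.5 and 32.4 CPM in wild-type VNCs. CG41520 had 5.67 and 4.55 CPM in pros and Syp knockdown tumors, 12.6 and 17.6 CPM in pros knockdown tumors, and 7.62 and 9.20 CPM in wild-type VNCs. CG43088 had 1.05 and 1.12 CPM in pros and Syp knockdown tumors, 3.55 and 3.40 CPM in pros knockdown tumors, and 1.6 and 1.77 CPM in wild-type VNCs. In all 3 of these the pros knockdown libraries stood above the other 4 libraries, and the double knockdown lay slightly below wild type. The lower calls of CG41520 and CG43088 in the double knockdown were weak, with edgeR adjusted p values of 0.034 and 0.0356 that passed 0.05 when single libraries were left out (up to 0.139 without wild-type replicate 2 and 0.122 without pros and Syp knockdown replicate 1). The call of CG43088 was also lost without the filter on low counts and in a fit of the 4 libraries compared alone. CG8620 had 1.55 and 1.57 CPM in pros and Syp knockdown tumors, 12.6 and 12.2 CPM in pros knockdown tumors, and 7.62 and 12.5 CPM in wild-type VNCs. Its pros knockdown call (log2 fold change 0.59, edgeR adjusted p = 0.0332) was lost without wild-type replicate 1 (0.33, 0.0959), without either pros knockdown library (0.59, 0.105, and 0.60, 0.103), and with library totals alone (0.30). CG2861 and CG33509 completed this group, at 0.757 and 0.782 CPM and at 0.617 and 0.424 CPM in pros and Syp knockdown tumors, 4.07 and 7 CPM and 3.56 and 3.22 CPM in pros knockdown tumors, and 2.46 and 2.03 CPM and 1.19 and 1.65 CPM in wild-type VNCs.

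The largest group, 16 members, was lower than wild type in the double knockdown and not called in the pros knockdown. Medians were 1.08 CPM in pros and Syp knockdown tumors, 4.35 CPM in pros knockdown tumors and 12.2 CPM in wild-type VNCs. It included CG33109, CG16826 and CG45080. The wild-type libraries were over 2-fold apart for 8 of these 16, and the pros and Syp knockdown libraries were over 2-fold apart for 8. CG33109 had a log2 fold change of -7.29 ± 0.98 in the double knockdown (edgeR adjusted p = 0.00075), the largest of all 62, which was -5.91 without wild-type replicate 1, -7.98 without wild-type replicate 2, and -8.94 and -6.64 without pros and Syp knockdown replicate 1 and 2. CG16826 had -4.46 ± 1.14 (edgeR adjusted p = 0.0121), which was -2.51 without wild-type replicate 1, -5.27 without wild-type replicate 2, and -6.01 and -3.73 without pros and Syp knockdown replicate 1 and 2. The direction held in each case, while the size depended on which libraries were used. CG45080 had -2.64 (edgeR adjusted p = 0.0261), with -4.96 and -1.81 without pros and Syp knockdown replicate 1 and 2, and it lost its call without either wild-type library (0.0761 and 0.0647) and without either pros knockdown library (0.051 and 0.0508).

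CG34212, CG13947, CG43679, CG30371 and CG8708 shared a high wild-type replicate 1. CG34212 had 4.25 and 1.39 CPM in pros and Syp knockdown tumors, 18.4 and 22.3 CPM in pros knockdown tumors, and 102 and 8.80 CPM in wild-type VNCs. CG13947 had 2.11 and 0.726 CPM in pros and Syp knockdown tumors, 3.11 and 6.3 CPM in pros knockdown tumors, and 51.3 and 3.01 CPM in wild-type VNCs. CG30371, the serine protease, had 0.664 and 0.32 CPM in pros and Syp knockdown tumors, 1.67 and 1.82 CPM in pros knockdown tumors, and 23.5 and 2.40 CPM in wild-type VNCs. Over all 62 genes, 9 were over 2-fold higher in wild-type replicate 1 than in replicate 2. All 9 were also higher in pros and Syp knockdown replicate 1 than in replicate 2, but so were 49 of all 62 members. These 9 are thus not set apart by it. Without wild-type replicate 1 the log2 fold change in the double knockdown was -1.46 for CG34212 (edgeR adjusted p = 0.0718, against -4.18 with it), -0.90 for CG13947 (0.294, against -4.15), -0.82 for CG8708 (0.0992, against -2.94), -2.06 for CG30371 (0.00936, against -4.57) and -0.93 for CG43679 (0.00543, against -2.78). The call of CG43679 was lost without pros and Syp knockdown replicate 1 or 2 (0.0618 and 0.0602), and that of CG34212 without pros and Syp knockdown replicate 2 (0.0721). CG8708, the galactosyltransferase relative, had 0.578 and 0.349 CPM in pros and Syp knockdown tumors, 1.76 and 2.03 CPM in pros knockdown tumors, and 6.95 and 0.946 CPM in wild-type VNCs, and CG13947 and CG8708 lost the call in 5 and 4 of the 6 fits that left out a library. In all, 7 of the 16 lost the call in at least 1 fit that left out a library.

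CG34396, CG42867, CG34423, CG6836 and CG32984 were further members of this group. CG34396 had 2.88 and 2.26 CPM in pros and Syp knockdown tumors, 9.85 and 13.5 CPM in pros knockdown tumors, and 10.7 and 12.1 CPM in wild-type VNCs, so that pros knockdown and wild type overlapped. CG42867 had 0.18 and 0.226 CPM in pros and Syp knockdown tumors, 0.919 and 1.17 CPM in pros knockdown tumors, and 0.992 and 1.28 CPM in wild-type VNCs. These 5 kept the lower call in the double knockdown whichever library was left out, as did CG4456, CG33109, CG16826 and CG30371. The fold of CG32984 was the most variable of the 5, at -2.94 with all libraries and -2.23 without wild-type replicate 1.

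The last group, 15 members, was called lower than wild type in both tumors, with medians of 0.883 CPM in pros and Syp knockdown tumors, 3.98 CPM in pros knockdown tumors and 14.5 CPM in wild-type VNCs. Log2 fold changes over wild type ran from -6.54 to -2.63 in pros and Syp knockdown tumors and from -3.91 to -1.07 in pros knockdown tumors. CG7509 had 0.882 and 0.481 CPM in pros and Syp knockdown tumors, 4.10 and 3.87 CPM in pros knockdown tumors, and 71.7 and 73.7 CPM in wild-type VNCs. Its log2 fold change was -6.54 ± 0.23 in the double knockdown (edgeR adjusted p = 4.52e-06) and -3.91 ± 0.19 in the pros knockdown (edgeR adjusted p = 1.05e-05). CG12239 (X, 5792140 to 5794543) had 30.2 and 28.2 CPM in pros and Syp knockdown tumors, 62.9 and 91.2 CPM in pros knockdown tumors, and 569 and 636 CPM in wild-type VNCs. In both genes the 3 conditions formed 3 separate levels, with wild type at the top.

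CG13056 had 9 and 6.6 CPM in pros and Syp knockdown tumors, 23.1 and 24.4 CPM in pros knockdown tumors, and 69.3 and 78.2 CPM in wild-type VNCs. CG6503 had 4.3 and 2.22 CPM in pros and Syp knockdown tumors, 10.4 and 8.61 CPM in pros knockdown tumors, and 53.9 and 50.6 CPM in wild-type VNCs. CG42369 had 2.10 and 1.23 CPM in pros and Syp knockdown tumors, 5.65 and 3.86 CPM in pros knockdown tumors, and 11.6 and 12.6 CPM in wild-type VNCs. All 3 again showed the double knockdown lowest and wild type highest. The pros knockdown calls of CG42369 and CG9360, with log2 fold changes of -1.07 and -1.12, were the smallest of the lower calls there, and were lost without pros knockdown replicate 2 for CG42369 (-0.84, edgeR adjusted p = 0.0565) and without wild-type replicate 2 for CG9360 (-1.06, edgeR adjusted p = 0.0602).

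Few genes of this group have a known class. BomS6, the immune peptide, had 1.08 and 0.688 CPM in pros and Syp knockdown tumors, 3.30 and 2.42 CPM in pros knockdown tumors, and 13.2 and 15.9 CPM in wild-type VNCs. CG2736, of the CD36 scavenger receptor family, had 0.843 and 0.641 CPM in pros and Syp knockdown tumors, 2.95 and 2.26 CPM in pros knockdown tumors, and 10.2 and 11.4 CPM in wild-type VNCs. CG6067, the protease homolog, had 0.523 and 0.594 CPM in pros and Syp knockdown tumors, 3.03 and 2.15 CPM in pros knockdown tumors, and 8.66 and 12.6 CPM in wild-type VNCs. None of these 3 had overlapping conditions. CtsK2, the cathepsin-like protease, had the same order, with a log2 fold change of -4.01 in the double knockdown and -1.84 in the pros knockdown. CG4716, CG16926 and CG34166 completed the group beside Srg3 and CG31465, and CG34166 moved in the pros knockdown to -2.65 without pros knockdown replicate 1, against -2.0 with it. CG4716 moved in the double knockdown to -5.47 without pros and Syp knockdown replicate 1, against -4.61 with it.

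Of the marker lists of other tissues, the fat body list had the direction of the members between the tumors. The 6 fat body markers (lipid carriers, larval serum protein and yolk proteins) summed to 352 and 240 CPM in pros and Syp knockdown tumors, 1465 and 919 CPM in pros knockdown tumors, and 7153 and 6693 CPM in wild-type VNCs, with 6 of 6 lower in both pros and Syp knockdown libraries than in both pros knockdown libraries. The size of the difference varied by marker. The yolk protein gene Yp1 had 39.3 and 13.2 CPM in pros and Syp knockdown tumors and 372 and 256 CPM in pros knockdown tumors. The lipid carrier gene apolpp had 213 and 165 CPM, and 391 and 369 CPM, and Apoltp had 18.6 and 23.8 CPM, and 30.5 and 27.5 CPM. The fat body sum thus had the order of conditions of the 15 members that were lower than wild type in both tumors. For those 15 the rule and the calls fixed that order in advance. The medians of the condition means of the 16 members lower in the double knockdown alone had it as well, but not library by library. By library their medians were 17.1 and 5.57 CPM in wild-type VNCs and 3.60 and 5.89 CPM in pros knockdown tumors. Wild-type replicate 2 thus lay below pros knockdown replicate 2. The 9 muscle markers went the other way between the tumors, with 1072 and 1710 CPM in pros and Syp knockdown tumors, 201 and 194 CPM in pros knockdown tumors, and 914 and 1444 CPM in wild-type VNCs. The 7 neuron markers summed to 1491 and 1976 CPM, 866 and 1000 CPM, and 6166 and 6614 CPM in the same order of conditions. The 6 glia markers summed to 601 and 695 CPM in pros and Syp knockdown tumors, 374 and 373 CPM in pros knockdown tumors, and 983 and 1074 CPM in wild-type VNCs. The neuron and glia sums, like the muscle sum, were thus lower in pros knockdown than in pros and Syp knockdown tumors. Both pros knockdown libraries were the lower ones for 7 of 7 neuron and 9 of 9 muscle markers. The glia list was split, with 3 of 6 markers lower and 1 higher. Eaat1 made up most of the glia sum, at 460 and 497 CPM in pros and Syp knockdown tumors and 269 and 256 CPM in pros knockdown tumors. The 6 gut markers differed between the libraries of a tumor condition, at 206 and 7.10 CPM in pros and Syp knockdown tumors and 64.3 and 11.1 CPM in pros knockdown tumors, against 90.3 and 115 CPM in wild-type VNCs. Of the members, 49 of 62 were higher in pros and Syp knockdown replicate 1 than in replicate 2, and of the 11 that were over 2-fold apart there, 10 were higher in replicate 1. The same shares over all genes were not computed. The 6 testis markers summed to 49.3 and 43.6 CPM, 25.7 and 26.6 CPM, and 2.15 and 2.5 CPM in the same order of conditions, of which bam made up most in the tumor libraries. The part of these tissues in the levels of the members was not tested.

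**Figure D4:**
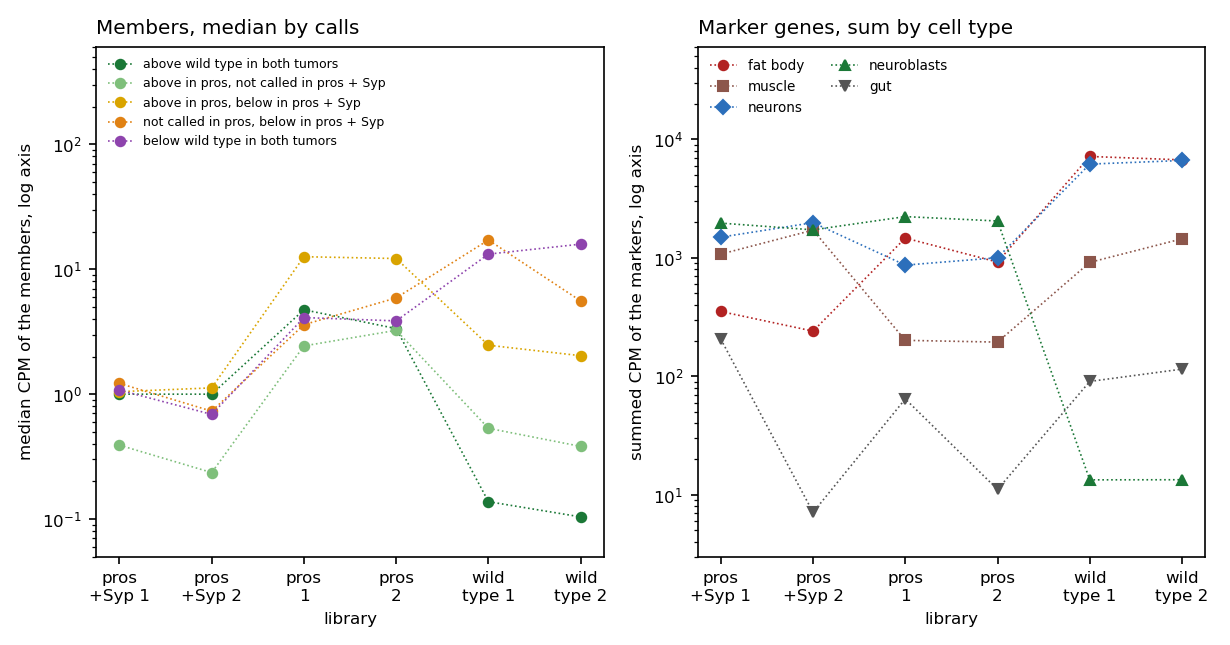
Left, median CPM of the members in each group of calls by library. Right, summed CPM of the marker genes of 5 cell types by library. Both axes are logarithmic and dotted lines only join the points. The fat body sum is at 240 to 352, 919 to 1465 and 6693 to 7153 CPM in double knockdown, pros knockdown and wild type. The group below wild type in both tumors has the same order, which the rule and the calls fixed for it.

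Some members share reads with other genes. A read was counted for every gene whose exons it overlapped and without regard to strand, and 12 members share exon bases with another gene, 5 of them over 50%. CG4456 (3L, 9372722 to 9374964, synonym Hsp67Bb) shares 90.1% of its exon bases with Hsp22, a small heat shock protein of mitochondria. It had 20.6 and 10.4 CPM in pros and Syp knockdown tumors, 144 and 132 CPM in pros knockdown tumors, and 80.2 and 130 CPM in wild-type VNCs. Hsp22 had 20.6 and 10.4, 144 and 132, and 80.2 and 130 CPM in the same libraries, so the 2 genes cannot be told apart in these counts. CG4456 belonged to the group called in the double knockdown alone, with a log2 fold change over wild type of -2.61 ± 0.34 there (edgeR adjusted p = 0.000631) and 0.68 ± 0.32 in the pros knockdown (edgeR adjusted p = 0.0933). CG31465 shares 97.5% of its exon bases with asRNA:CR45046 and 2.18% with fit, both on the opposite strand. It had 0.164 and 0.066 CPM in pros and Syp knockdown tumors, 2.86 and 0.511 CPM in pros knockdown tumors, and 9.06 and 7.62 CPM in wild-type VNCs. The gene fit, which encodes a female-enriched peptide of the fat body, had 0.679 and 0.254 CPM in pros and Syp knockdown tumors, 14.0 and 2.98 CPM in pros knockdown tumors, and 47.4 and 39.4 CPM in wild-type VNCs. The 3 overlapping genes thus had the same order of libraries. The pros knockdown call of CG31465 was lost without wild-type replicate 1 or 2 (edgeR adjusted p = 0.138 and 0.0902), and its log2 fold change of -2.03 there was -3.69 and -1.29 without pros knockdown replicate 1 and 2. In the double knockdown it was -5.82, or -6.45 without pros and Syp knockdown replicate 1. CG34423 shares 65.7% of its exon bases with asRNA:CR44168, and CG43998 and CG43999 share 95.1% and 94.7% of theirs and have identical counts, so that they are a single measurement counted as 2 members. Both had 1.18 and 0.707 CPM in pros and Syp knockdown tumors, 2.43 and 3.24 CPM in pros knockdown tumors, and 1.04 and 1.12 CPM in wild-type VNCs.

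Some members had another member nearby, with 12 of 62 in 6 pairs within 10 kb, of which CG43998 and CG43999 are a single measurement. A count of 8 members lay inside the span of another gene. These shares were not compared with those of other CG genes. CG5079 and CG5071 lie 3962 bases apart on the plus strand inside the span of Npl4, which runs on the minus strand and codes for a partner of the p97 ATPase. Npl4 had 80.1 and 73.0 CPM in pros and Syp knockdown tumors, 69.3 and 61.5 CPM in pros knockdown tumors, and 60.1 and 70.1 CPM in wild-type VNCs, so the host gene was not lower in the double knockdown as the pair was. CG14070 and CG7309 lie 4484 bases apart on 2L, with CR45724 between them and CG14069 beyond. CG14069 had 0.00781 and 0.0471 CPM in pros and Syp knockdown tumors, 0.702 and 0.929 CPM in pros knockdown tumors, and 0.0459 and 0.0694 CPM in wild-type VNCs, below the 1 CPM that the rule asks for. CR45724 had 0 CPM in both pros and Syp knockdown libraries, and 0.445 and 0.418 CPM in pros knockdown tumors, against 0.0184 and 0 CPM in wild-type VNCs. All 4 neighbors were thus highest in pros knockdown tumors, while the next gene, dpr2, had 9.01 and 10.9 CPM in pros and Syp knockdown tumors, 9.39 and 8.46 CPM in pros knockdown tumors, and 19.1 and 20.4 CPM in wild-type VNCs.

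CG14304 and Tssk (CG14305) lie on opposite strands, with Tssk inside the span of CG14304 and both overlapped by the span of qin, a gene of the piRNA pathway of the germline. The gene qin had 4.43 and 4.07 CPM in pros and Syp knockdown tumors, 19.2 and 24.8 CPM in pros knockdown tumors, and 12.3 and 12.3 CPM in wild-type VNCs, and shares 0.547% of the exon bases of CG14304. Its name kept it from the list. CG44142 and CG45080 lie 5802 bases apart on 3R. CG44142 had 0.367 and 0.0848 CPM in pros and Syp knockdown tumors, 1.99 and 1.28 CPM in pros knockdown tumors, and 0.873 and 0.998 CPM in wild-type VNCs, with the same order of conditions as its neighbor. Its lower call in the double knockdown, at -1.82, was lost without either wild-type library (edgeR adjusted p = 0.0732 and 0.0894) and was -3.02 and -1.20 without pros and Syp knockdown replicate 1 and 2.

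CG43679 and CG43680 lie 1572 bases apart on 3L inside the span of Sytbeta, on the same strand and without shared exon bases. CG43679 had 2.92 and 2.83 CPM in pros and Syp knockdown tumors, 9.07 and 8.14 CPM in pros knockdown tumors, and 36.3 and 6.27 CPM in wild-type VNCs. CG43680 had 0.0859 and 0.179 CPM in pros and Syp knockdown tumors, 2.39 and 0.302 CPM in pros knockdown tumors, and 0.818 and 1.16 CPM in wild-type VNCs. The lower call of CG43680 in the double knockdown (-2.60, edgeR adjusted p = 0.042) was lost without either wild-type library and without either pros and Syp knockdown library (0.0664 to 0.147). The high wild-type replicate 1 of CG43679 was not seen in CG43680, whose pros knockdown libraries differed instead. Sytbeta itself had 9.22 and 11.5 CPM in pros and Syp knockdown tumors, 7.89 and 9.58 CPM in pros knockdown tumors, and 58.9 and 69.4 CPM in wild-type VNCs.

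In gene length the members were short. Their exons had a median of 1401 bases, against 1807.5 bases for the CG genes with at least 1 CPM in pros knockdown tumors, and 30.6% of members, against 17.6% of those genes, had under 1000 bases. Of the 19 short members, 8 belonged to the group lower than wild type in the double knockdown alone and 7 to the group lower in both tumors. The members also had lower levels in pros knockdown tumors, with a median of 3.92 CPM against 12.9 CPM for the CG genes with at least 1 CPM. CPM is not scaled by length, and lengths were not compared at equal levels. A count of 16 members had a single exon block. Chromosome arm 3R held 17 members, 2R 15, 3L 11, 2L 10 and X 9, or 27.4%, 24.2%, 17.7%, 16.1% and 14.5% of members, against 24.9%, 19.4%, 19.2%, 17.2% and 19% of the CG genes expressed. Scaled by length, as RPKM (CPM per 1000 bases of exon), CG5079 and CG16826 had the highest means of the list in pros knockdown tumors. CG5079 had 105 RPKM in pros and Syp knockdown tumors, 340 RPKM in pros knockdown tumors and 8 RPKM in wild-type VNCs. CG16826 had 28.9 RPKM in pros and Syp knockdown tumors, 334 RPKM in pros knockdown tumors and 675 RPKM in wild-type VNCs. In pros knockdown tumors the 2 genes thus had nearly the same level by length, whereas their wild-type levels were far apart.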

How the data were processed

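RNA was measured in 6 bulk libraries, 2 per condition. The authors prepared rRNA-depleted, strand-marked libraries, mapped reads with Subread to dmel6 and made the deposited raw counts per gene with featureCounts 1.5.0 on the exons of FlyBase release 6.19, without strand and with each read counted for every gene it overlapped. The labels call the RNA polyA, where the methods give rRNA-depleted total RNA, and the submitters' notes also list another build. Members and gene lists were chosen with earlier results of these data known. CPM is the count divided by the column total. Tumors were compared with wild type in R 4.3.3 with edgeR 4.0.16 (quasi-likelihood test, TMM, filterByExpr with a minimum count of 10, prior count of 2, Benjamini-Hochberg over 14451 genes, adjusted p under 0.05), with limma 3.58.1 as its base. Standard errors were derived from the fold change and its F statistic. DESeq2 1.42.0 served for alternatives (size factors and Wald test), beside library totals, no filter, 4 libraries per fit, a replicate block, a threshold of 0.001 and leaving out each library. Intervals on ratios of counts were computed with scipy 1.17.1, and figures with matplotlib 3.10.9. The fit code was also run on simulated counts with few changed genes and the same spread for every gene. That setting differs from these data, so it does not show the error rates here. Values in every library are given by a rule: the 10 members with the largest ratio, the 10 with the highest pros knockdown and 5 with the highest wild-type means, the 3 largest and smallest calls each way, members at the edge and members beside another. Further members were named after their values were seen. Protein and promoter sequences were not used here. Of 17494 genes, all are named and 0 columns were left out.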

Additional observations from a re-analysis of the deposited data

How the results depend on the processing

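At an adjusted p under 0.001 in place of 0.05, 8 members in place of 13 were called higher and 21 in place of 40 lower than wild type in pros and Syp knockdown tumors, and 8 in place of 15 lower in pros knockdown tumors. A ratio of at least 4 left 29 members in place of 62. All other alternatives kept each count within 1.5 times. Under the rule, totals without ribosomal RNA genes gave 73 members and TMM-scaled CPM gave 77, with all 62 among them. CG9993, CG11889 and CG11891, just outside the rule, were members under both scalings. Leaving out 1 library gave 12 to 14 members higher and 31 to 37 lower in pros and Syp knockdown tumors, 30 to 34 higher and 14 to 19 lower in pros knockdown tumors, and 53 to 90 members under the rule, the most without pros and Syp knockdown replicate 1. Membership turned over more than these counts show: 52 of 62 and 50 of 60 were among the 62 members without pros knockdown replicate 1 and 2, and 62 of 90 and 49 of 53 without pros and Syp knockdown replicate 1 and 2. With library totals alone the median log2 fold change of all genes moved to -0.08 in pros and Syp knockdown tumors and to -0.27 in pros knockdown tumors. Deviations of same-numbered libraries had correlations with wild type of -0.14 for pros knockdown and -0.09 for pros and Syp knockdown tumors. Between the tumor conditions the correlation was 0.23, and whether replicate numbers pair the tumor libraries was not tested. The fit with a replicate block gave 13 higher and 38 lower in pros and Syp knockdown tumors and 31 higher and 15 lower in pros knockdown tumors. The lower call of CG43088 in the double knockdown was among those lost. Of the 24 fold changes with the largest and smallest calls, 0 changed sign in 288 refits and 6 lost their call in at least 1. With 2 libraries per condition, calls on members with few counts or uneven libraries rest on little.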
